A study of Glycine max with 30 samples.

Results

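The genes described here are 10 soybean genes tied to resistance against the soybean cyst nematode, Heterodera glycines, chosen by their identifiers out of 55589 in the count tables. The first 4 form the Rhg1 block on chromosome 18. They are Glyma.18G022400, a predicted amino acid transporter (AAT), Glyma.18G022500, an alpha-SNAP (SNAP18), Glyma.18G022600, a PLAC8 domain protein (PLAC8), and Glyma.18G022700, a wound-inducible protein of the WI12 family (WI12). The Rhg4 locus on chromosome 8 gave 1 gene, Glyma.08G108900, a serine hydroxymethyltransferase (SHMT08). The other members were 1 gene for the SNAP partner NSF, Glyma.07G195900 (NSF07), and 4 alpha-SNAP paralogs, Glyma.11G234500 (SNAP11), Glyma.14G054900 (SNAP14), Glyma.02G260400 (SNAP02) and Glyma.09G279400 (SNAP09). The names and roles came with the choice of genes and not from the count tables. The RefSeq gene table held entries under a symbol or synonym of 7 of these genes on the same chromosomes, and placed SNAP18 and WI12 within 3 entries of the transporter. No identifier matched that table, so these entries were found by name only.

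Alpha-SNAP binds SNARE complexes and recruits the ATPase NSF, which takes the complexes apart so that they can serve again in vesicle fusion. Rhg1 is a block of neighbouring genes that is repeated in tandem in resistant soybeans. Its transporter, alpha-SNAP and WI12 genes each contribute to resistance, mainly at feeding sites in the root. Serine hydroxymethyltransferase interconverts serine and glycine in folate-dependent one-carbon metabolism, and resistance of the Peking type needs its Rhg4 form together with Rhg1. Jack is a cultivar with cyst nematode resistance. Neither the number of Rhg1 copies nor the alleles carried by these plants were measured here, and no nematode treatment was named in the labels.

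Poly(A) RNA of mature leaves was sequenced in 30 libraries from 3 RNAi lines, each with a construct against a subunit of the plant polymerases IV and V, which act in RNA-directed DNA methylation. Libraries were labelled T or NT for the transgene, read here as transgenic and non-transgenic. The NRPD1-RNAi line (largest subunit of polymerase IV), in cultivar Jack, had 3 T and 3 NT libraries. The NRPE1-RNAi line (largest subunit of polymerase V) and the NRP(D/E)2-RNAi line (second subunit, shared by both), each in cultivar Mustang, had 6 T and 6 NT libraries apiece. Cultivar, construct and line, with any batch that followed a line, cannot be told apart, and neither the promoter of the constructs nor plant age was given in the sources used here. The labels did not say whether replicates were separate plants, so p-values measure only the spread between these samples. In bulk leaf RNA, fewer cells of a type and less RNA per cell cannot be told apart.

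Libraries held 10049997 to 21763621 counts. Levels are given as CPM (counts scaled to a common library total, with TMM factors over all libraries), which are not corrected for gene length and so are compared within a gene only. A gene was called at an edgeR adjusted p under 0.05. The knockdown of the targeted subunits and the leaf markers were not analysed here, since the identifiers carry no names. Replicate 3 of the Jack T libraries stood apart from the other 5 Jack libraries in a principal component analysis (first component, 55.7% of the variance), and some T over NT values in Jack are given without it too. Near-identical copies, such as SNAP18 and SNAP11, or SNAP14 and SNAP02, may have exchanged reads in the authors' counting, so that their levels are uncertain to that degree.

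Of the 10 genes, 9 passed the expression filter in every comparison, and SNAP02 did not. PLAC8 passed in NRPD1-RNAi through its T libraries, with 2 counts in NT. Between T and NT libraries of a line, 0 of the 9 were called in NRPD1-RNAi (Jack), where 0.0164% of all tested genes were. In NRPE1-RNAi 0 of 9 were called, against 1.97% of all tested genes. In NRP(D/E)2-RNAi 2 of 9 were called, WI12 and SHMT08, both higher in T, against 15.9% of all tested genes in either direction and 8.6% higher. Between the Jack line and the Mustang lines the calls were more, among the members and among all tested genes. In NT libraries, 8 of 9 members differed between Jack and Mustang, against 54.7% of all tested genes. In Jack 1 was higher and 7 were lower, against 28.5% and 26.2% of all tested genes. In T libraries 5 of 9 did, against 51%, all of them lower in Jack, as were 22.6% of all tested genes. Between the NT libraries of the Mustang lines, NRPE1-RNAi against NRP(D/E)2-RNAi, 4 of 9 differed, against 39.9%. Against the NRPE1-RNAi NT libraries alone, 5 of 9 differed in Jack NT, against 47.3%.

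SNAP18, the alpha-SNAP of the Rhg1 block, was counted at 329 CPM or more in every library. Its level was 334, 395 and 485 CPM in the Jack T libraries, against 383, 329 and 430 CPM in the Jack NT libraries. In NRPE1-RNAi the lowest, median and highest values were 443, 528 and 630 CPM in T libraries, against 432, 510 and 544 CPM in NT libraries. In NRP(D/E)2-RNAi they were 488, 557 and 617 CPM in T libraries, against 378, 531 and 618 CPM in NT libraries. T and NT libraries overlapped in every line, and in the order of the 6 group means each neighbouring pair overlapped. The T over NT log2 fold change was 0.13 ± 0.25 (SE) in NRPD1-RNAi, 0.07 ± 0.13 in NRPE1-RNAi and 0.17 ± 0.16 in the NRP(D/E)2-RNAi line, with edgeR adjusted p-values of 0.951, 0.843 and 0.485. Without Jack T replicate 3 the NRPD1-RNAi value was -0.07. SNAP18 was lower in Jack than in Mustang, by a log2 difference of -0.41 ± 0.16 in NT libraries and -0.41 ± 0.16 in T libraries (edgeR adjusted p = 0.0309 and 0.0312). The NT call was lost without Jack NT replicate 1 (-0.43, edgeR adjusted p = 0.0702) or replicate 2 (-0.35, adjusted p = 0.134), and the T call without Jack T replicate 1 (-0.35, edgeR adjusted p = 0.144) or replicate 2 (-0.41, adjusted p = 0.1). Against NRPE1-RNAi alone neither was called (NT -0.40, edgeR adjusted p = 0.0569; T -0.37, adjusted p = 0.0834), and with the 15 NT libraries alone the NT difference was -0.38 (adjusted p = 0.0791). With total count scaling the median of all genes moved to -0.55 in the NT contrast, against -0.04 with TMM, and SNAP18 to -0.92, so these small differences are relative to that median.

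The transporter AAT, first of the block, differed between the Mustang lines and was not called between T and NT in any line. Its level was 93.2, 116 and 189 CPM in Jack T, against 93.8, 99.7 and 111 CPM in Jack NT. NRPE1-RNAi libraries averaged 90.0 ± 22.3 CPM in T and 111 ± 46.1 CPM in NT, and NRP(D/E)2-RNAi libraries 204 ± 50.3 CPM in T and 288 ± 64.0 CPM in NT (SD, n = 6 each). NRPE1-RNAi NT libraries, at 70.5 to 181 CPM, all lay below NRP(D/E)2-RNAi NT libraries, at 211 to 371 CPM, as 9.24% of all tested genes did. Their log2 difference was -1.37 ± 0.24 (edgeR adjusted p = 3.94e-05). The Jack difference depended on which Mustang line was taken. In NT libraries it was -0.82 ± 0.27 against the mean of both lines (edgeR adjusted p = 0.0138), -1.5 against NRP(D/E)2-RNAi and -0.13 against NRPE1-RNAi, where it was not called (adjusted p = 0.723). Without Jack NT replicate 1 the first of these was -0.79, with an edgeR adjusted p of 0.0579. In T libraries the difference was -0.03 ± 0.26 against the mean of both lines (edgeR adjusted p = 0.928), and -0.41 to 0.11 on leaving out 1 library. It was -0.62 ± 0.29 against NRP(D/E)2-RNAi and 0.56 ± 0.28 against NRPE1-RNAi, neither of them called (edgeR adjusted p = 0.0728 and 0.108). The comparisons against the 2 Mustang lines share the Jack libraries. The T over NT log2 fold change was 0.43 ± 0.31 in NRPD1-RNAi (0.03 without Jack T replicate 3), -0.30 ± 0.27 in NRPE1-RNAi and -0.46 ± 0.19 in the NRP(D/E)2-RNAi line, with edgeR adjusted p-values of 0.836, 0.638 and 0.108.

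**Figure D1:**
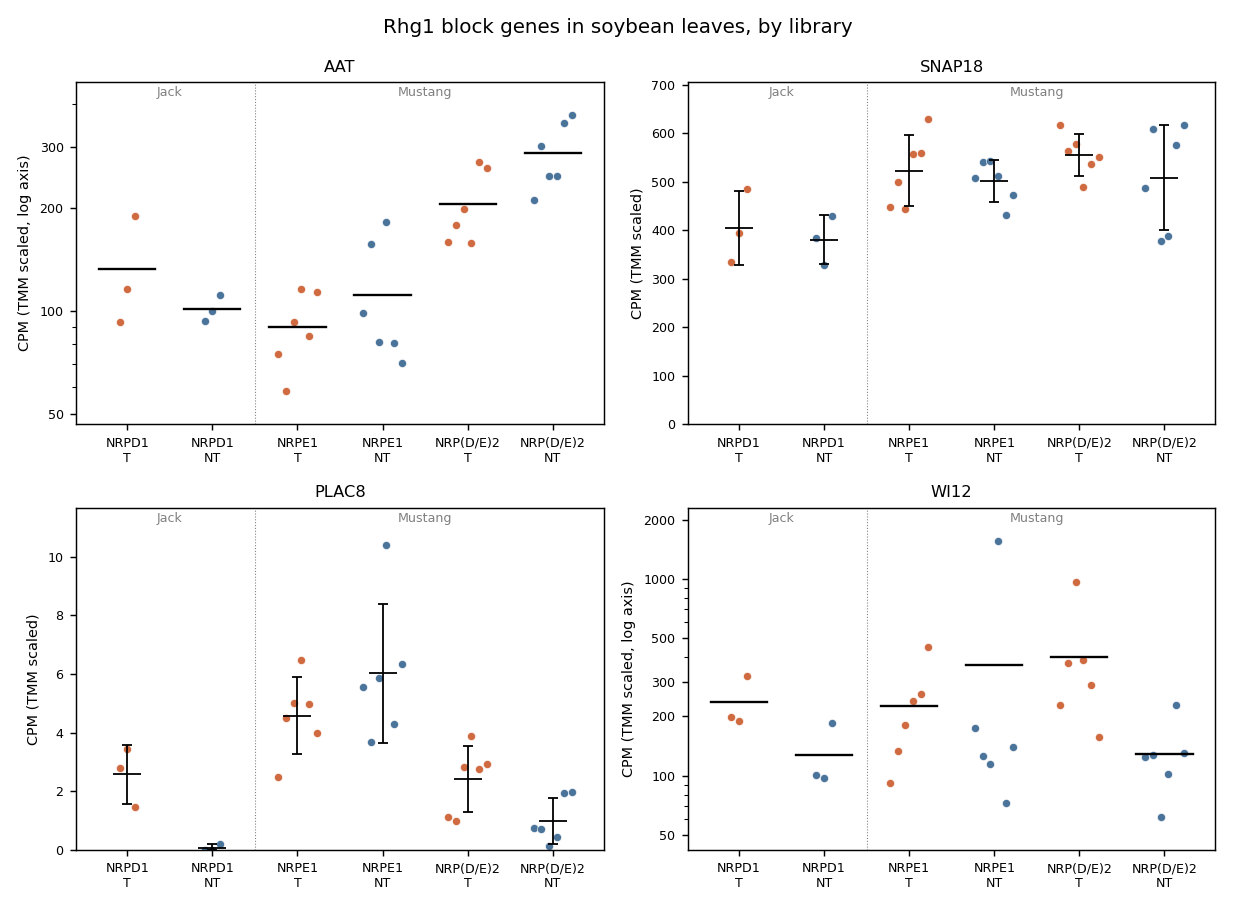
CPM (scaled by TMM) of the 4 Rhg1 block genes in each of 30 libraries, by line and transgene. Points are libraries, bars are group means, with ± SD on the linear axes of SNAP18 and PLAC8; AAT and WI12 have log axes. AAT was highest in NRP(D/E)2-RNAi, PLAC8 was near 0 in Jack NT, and 1 WI12 point of 1553 CPM stood above the other NRPE1-RNAi NT libraries.

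PLAC8, the third gene of the block, had its lowest group mean in Jack NT libraries. In Jack, T libraries had 2.80, 3.45 and 1.47 CPM, against 0, 0 and 0.207 CPM in NT libraries. All 3 T libraries were above all 3 NT libraries, as were 7.66% of all tested genes. In counts this was 74 in T against 2 in NT, a depth-scaled ratio of 33.8, with a 95% interval of 9.04 to 285 that covers counting error only. The edgeR adjusted p was 0.158, so the change was not called, and without Jack T replicate 3 it was 0.0890. PLAC8 passed the expression filter in Jack through the T libraries, where it was higher. The change was called with DESeq2 (adjusted p = 0.00474) and with edgeR over all 30 libraries (adjusted p = 0.00996). Those calls rest on the same 2 NT counts and are given as a description only.

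In the Mustang lines PLAC8 was present in NT libraries as well. NRPE1-RNAi averaged 4.57 ± 1.32 CPM in T and 6.03 ± 2.37 CPM in NT, and NRP(D/E)2-RNAi 2.41 ± 1.13 CPM in T and 0.988 ± 0.784 CPM in NT (SD, n = 6 each). The log2 fold change of T over NT was -0.39 ± 0.27 in NRPE1-RNAi, against 1.3 ± 0.53 for the NRP(D/E)2-RNAi line (edgeR adjusted p = 0.539 and 0.101). NRPE1-RNAi NT libraries, from 3.69 to 10.4 CPM, all lay above NRP(D/E)2-RNAi NT libraries, from 0.128 to 1.98 CPM, as did 8.57% of all tested genes, with a log2 difference of 2.58 ± 0.46 (edgeR adjusted p = 6.26e-05). Jack NT was lower than Mustang NT (edgeR adjusted p = 4.04e-05), although 1 Jack NT library, at 0.207 CPM, lay above the lowest NRP(D/E)2-RNAi NT library, at 0.128 CPM. The Jack NT level was 0.0114 of that in NRPE1-RNAi NT (95% counting interval 0.00138 to 0.0414) and 0.0690 of that in NRP(D/E)2-RNAi NT (0.00824 to 0.256). In T libraries the Jack over Mustang log2 difference was -0.38 ± 0.51 (edgeR adjusted p = 0.547). The T effect in Jack exceeded the mean T effect in Mustang by 4.58 ± 1.02 on the log2 scale (edgeR adjusted p = 0.0373), and PLAC8 was the 1 member of 9 called in that test, against 0.401% of all tested genes. That fitted value rests on the 2 counts in Jack NT. The call was lost without Jack NT replicate 1 (adjusted p = 0.229) or 2 (0.196), Jack T replicate 1 (0.0882) or 2 (0.0901), or NRPE1-RNAi T replicate 2 (0.0503), and with total count scaling (0.0589).

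WI12, the last gene of the block, was called higher in T in NRP(D/E)2-RNAi, and single libraries of the Mustang lines stood far above their groups. In Jack its level was 198, 190 and 321 CPM in T libraries, against 101, 96.9 and 186 CPM in NT libraries. The T libraries lay above the NT libraries without overlap, as did 7.66% of all tested genes, the closest pair being 190 CPM in T and 186 CPM in NT. The log2 fold change was 0.94 ± 0.36 and was not called (edgeR adjusted p = 0.581), and without Jack T replicate 3 it was 0.60. In NRP(D/E)2-RNAi the lowest, median and highest levels were 156, 332 and 961 CPM in T libraries, against 61.9, 126 and 228 CPM in NT libraries. WI12 rose there by 1.68 ± 0.43 on the log2 scale (edgeR adjusted p = 0.0216). The groups overlapped, T replicate 3 was the library at 961 CPM, and without it the change was 1.19 (adjusted p = 0.0365). In 1 model over all 30 libraries the change was 1.63 with an adjusted p of 0.0640.

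In NRPE1-RNAi the WI12 levels were 91.8, 211 and 451 CPM in T libraries, against 72.5, 132 and 1553 CPM in NT libraries. NT replicate 4 held the 1553 CPM, and the other 5 NT libraries reached at most 175 CPM. The log2 fold change was -0.69 ± 0.75 with all libraries and 0.86 without that replicate, with edgeR adjusted p-values of 0.710 and 0.172. The same library moved the WI12 difference between the NT libraries of NRPE1-RNAi and NRP(D/E)2-RNAi, which was 1.5 ± 0.59 (edgeR adjusted p = 0.0463) and turned to -0.04 without it (adjusted p = 0.954). That call was also lost without NRP(D/E)2-RNAi NT replicates 1, 2, 3, 4 or 6, at values of 1.35 to 1.5. The Jack over Mustang difference of WI12 was -0.76 ± 0.69 in NT and -0.35 ± 0.67 in T libraries and was not called (edgeR adjusted p = 0.357 and 0.684). Without NRPE1-RNAi NT replicate 4 the NT value was 0.0067. That library differed in more than WI12. Over all genes, T against NT in NRPE1-RNAi gave 618 calls with it and 2103 without it. Among the NRPE1-RNAi NT libraries it was the highest for AAT (181 CPM), PLAC8 (10.4 CPM) and NSF07 (32.5 CPM), and the lowest for SNAP09 (8.02 CPM).

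SHMT08, the Rhg4 gene, showed the widest separation of the Mustang lines among the members. In NRPE1-RNAi its lowest, median and highest levels were 301, 404 and 578 CPM in T libraries, against 284, 369 and 562 CPM in NT libraries. In NRP(D/E)2-RNAi they were 18, 44.7 and 88.7 CPM in T libraries, against 17.1, 25.4 and 35.5 CPM in NT libraries. Each of the 12 NRPE1-RNAi libraries was above each of the 12 NRP(D/E)2-RNAi libraries, as was the case for 4.49% of all tested genes. The ratio of mean levels was 15.6 between the NT groups and 8.09 between the T groups, and the log2 difference between NT groups was 3.96 ± 0.32 (edgeR adjusted p = 1.28e-10).

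Jack libraries overlapped with NRPE1-RNAi libraries in SHMT08 level. They had 223, 310 and 139 CPM in T, against 319, 338 and 215 CPM in NT. In the order of group means, NRPE1-RNAi T, NRPE1-RNAi NT, Jack NT and Jack T overlapped with their neighbours. A gap followed, and then came NRP(D/E)2-RNAi T and NT, which overlapped. SHMT08 was the only member called higher in Jack NT than in Mustang NT, by 1.56 ± 0.29 on the log2 scale (edgeR adjusted p = 5.79e-05). That average joined unlike values, a log2 difference of 3.54 ± 0.34 against NRP(D/E)2-RNAi and one of -0.42 ± 0.35 against NRPE1-RNAi (edgeR adjusted p = 0.326). In T libraries the difference was 0.64 ± 0.30 (edgeR adjusted p = 0.0751), which likewise joined 2.15 ± 0.33 against NRP(D/E)2-RNAi (adjusted p = 5.8e-06) and -0.86 ± 0.36 against NRPE1-RNAi (adjusted p = 0.0535). The average was called without Jack T replicate 3 (0.86, adjusted p = 0.0342) and without NRP(D/E)2-RNAi T replicate 2 (0.76, adjusted p = 0.0270).

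**Figure D2:**
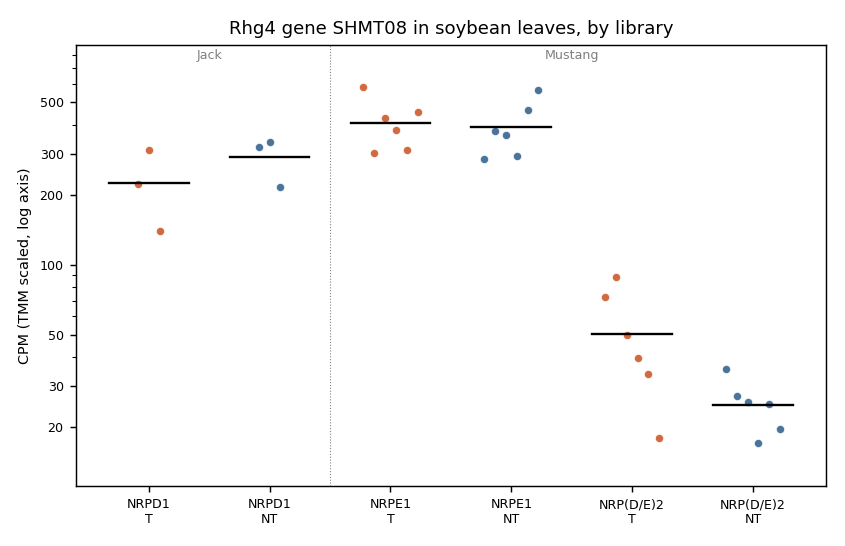
CPM (scaled by TMM, log axis) of SHMT08 in each of 30 libraries, by line and transgene. Points are libraries and bars are group means. The 12 NRP(D/E)2-RNAi libraries lie between 17.1 and 88.7 CPM, below all Jack and NRPE1-RNAi libraries.

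Within NRP(D/E)2-RNAi, SHMT08 rose in T by 1.05 ± 0.32 on the log2 scale (edgeR adjusted p = 0.0431). Of the 6 T libraries, 4 lay above all NT libraries. The call was near the threshold, being lost on leaving out any 1 of 9 of the 12 libraries (log2 changes of 0.82 to 1.11, edgeR adjusted p = 0.0517 to 0.0944) and kept without NT replicate 1, T replicate 5 or T replicate 6. The T over NT log2 fold change was -0.36 ± 0.33 in NRPD1-RNAi (-0.14 without Jack T replicate 3) and 0.08 ± 0.21 in NRPE1-RNAi (edgeR adjusted p = 0.879 and 0.893). Whether the T effect differed between the Mustang lines was tested for each member. None of the 9 was called by edgeR, against 0.169% of all tested genes, and DESeq2 called 0. At an unadjusted p under 0.05 there were 3, against 9.74% of all tested genes. They were PLAC8 (NRPE1-RNAi minus NRP(D/E)2-RNAi, -1.66 ± 0.62), WI12 (-2.31 ± 0.83, and -0.78 without NRPE1-RNAi NT replicate 4) and SHMT08 (-0.94 ± 0.40).

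**Figure D3:**
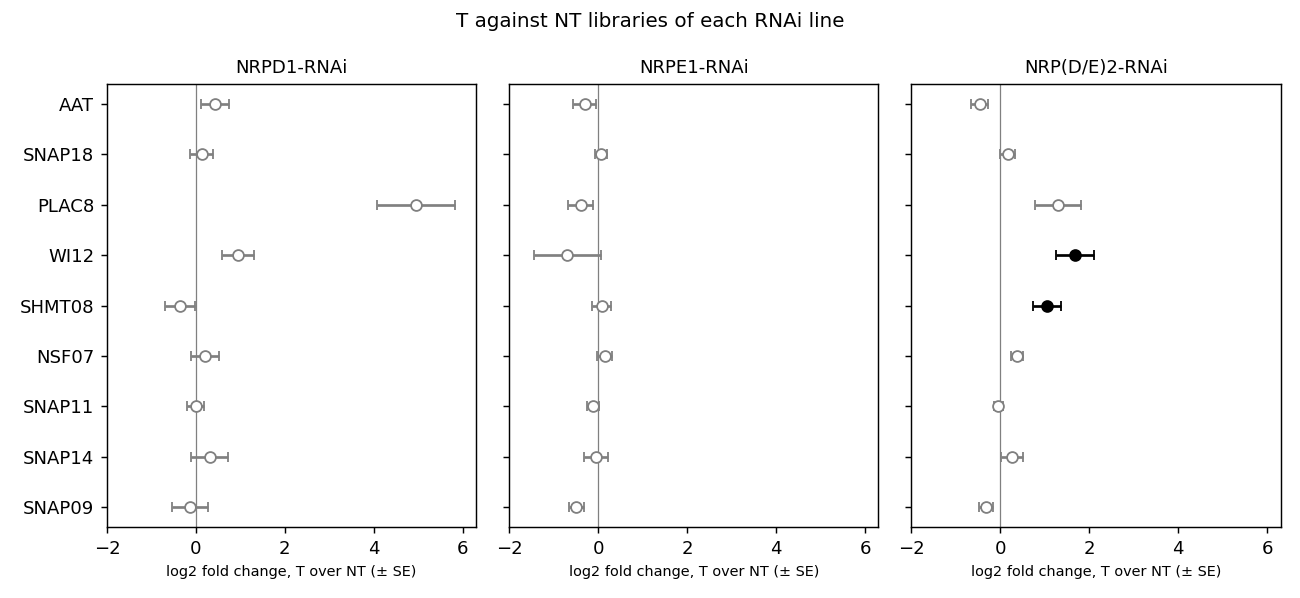
Log2 fold change of T over NT libraries (± SE, edgeR) for the 9 tested members in each line. Filled black points were called at an adjusted p under 0.05; only WI12 (1.68) and SHMT08 (1.05) in NRP(D/E)2-RNAi were. The PLAC8 point of NRPD1-RNAi rests on 2 NT counts.

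NSF07, the ATPase partner, was lower in Jack than in Mustang. It had 10.8, 12.3 and 19.4 CPM in Jack T and 15.7, 9.37 and 13.3 CPM in Jack NT. In NRPE1-RNAi it averaged 24.9 ± 2.46 CPM in T and 22.7 ± 5.84 CPM in NT, and in NRP(D/E)2-RNAi 32.2 ± 3.39 CPM in T and 25.5 ± 5.00 CPM in NT (SD, n = 6 each). The Jack over Mustang log2 difference was -0.91 ± 0.20 in NT and -0.99 ± 0.20 in T libraries (edgeR adjusted p = 0.000435 and 0.000194), with no overlap of the Jack and Mustang libraries in either, as for 11.7% of all tested genes in NT and 10.3% in T. The T over NT fold change was not called in any line; the largest was 0.38 ± 0.14 in NRP(D/E)2-RNAi (edgeR adjusted p = 0.0829).

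The alpha-SNAP paralogs SNAP14 and SNAP09 had the largest Jack over Mustang differences of the SNAP and NSF genes. SNAP14 had 0.895 to 1.70 CPM in 6 Jack libraries, against 4.75 to 14.6 CPM in 24 Mustang libraries. SNAP09 had 1.45 to 3.63 CPM in Jack, against 5.39 to 15.9 CPM in Mustang. For both, every Jack library was below every Mustang library, as for 3.9% of all tested genes. The log2 differences of SNAP14 were -2.91 ± 0.39 in NT and -2.72 ± 0.37 in T (edgeR adjusted p = 6.76e-07 and 1.31e-06). Those of SNAP09 were -1.88 ± 0.24 in NT and -1.62 ± 0.24 in T (edgeR adjusted p = 4.29e-07 and 3.83e-06). SNAP11, the paralog on chromosome 11, had 9.14 to 12.2 CPM in Jack, against 11.1 to 19.1 CPM in Mustang, with log2 differences of -0.61 ± 0.13 in NT and -0.55 ± 0.12 in T (edgeR adjusted p = 0.000208 and 0.000702). Reads of its near-identical and far more counted copy SNAP18, also lower in Jack, may be part of these SNAP11 values, which was not tested.

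These paralogs were not called between T and NT in any line. The largest such fold change was that of SNAP09 in NRPE1-RNAi, with 6.5, 8.35 and 10.2 CPM (lowest, median and highest) in T libraries, against 8.02, 12.7 and 15.9 CPM in NT libraries. Its log2 fold change there was -0.48 ± 0.17 (edgeR adjusted p = 0.209), and in NRP(D/E)2-RNAi it was -0.32 ± 0.15 (edgeR adjusted p = 0.150). SNAP02 was nearly silent, with 7 counts in all, spread over 5 libraries, and none in the other 25. A count of 0 allowed up to 0.138 to 0.299 CPM, depending on the library, by counting error alone.

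SNAP18 held most of the alpha-SNAP counts in every group. Its share of the counts of the 5 alpha-SNAP genes was 96.6% ± 0.349 in Jack T and 96.3% ± 0.360 in Jack NT (SD, n = 3 each). It was 94.4% ± 0.562 in NRPE1-RNAi T and 93.4% ± 0.725 in NRPE1-RNAi NT, and 94.5% ± 0.354 in NRP(D/E)2-RNAi T and 93.7% ± 0.834 in NRP(D/E)2-RNAi NT (SD, n = 6 each). The Jack libraries, from 95.9% to 97.0%, all lay above the Mustang libraries, which reached at most 95.1%. SNAP18 itself was not higher in Jack, with a Jack over Mustang log2 difference of -0.41 in NT libraries. The other tested alpha-SNAP genes were lower by more there (SNAP11 -0.61, SNAP14 -2.91, SNAP09 -1.88). The shares are of counts and are not corrected for gene length.

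**Figure D4:**
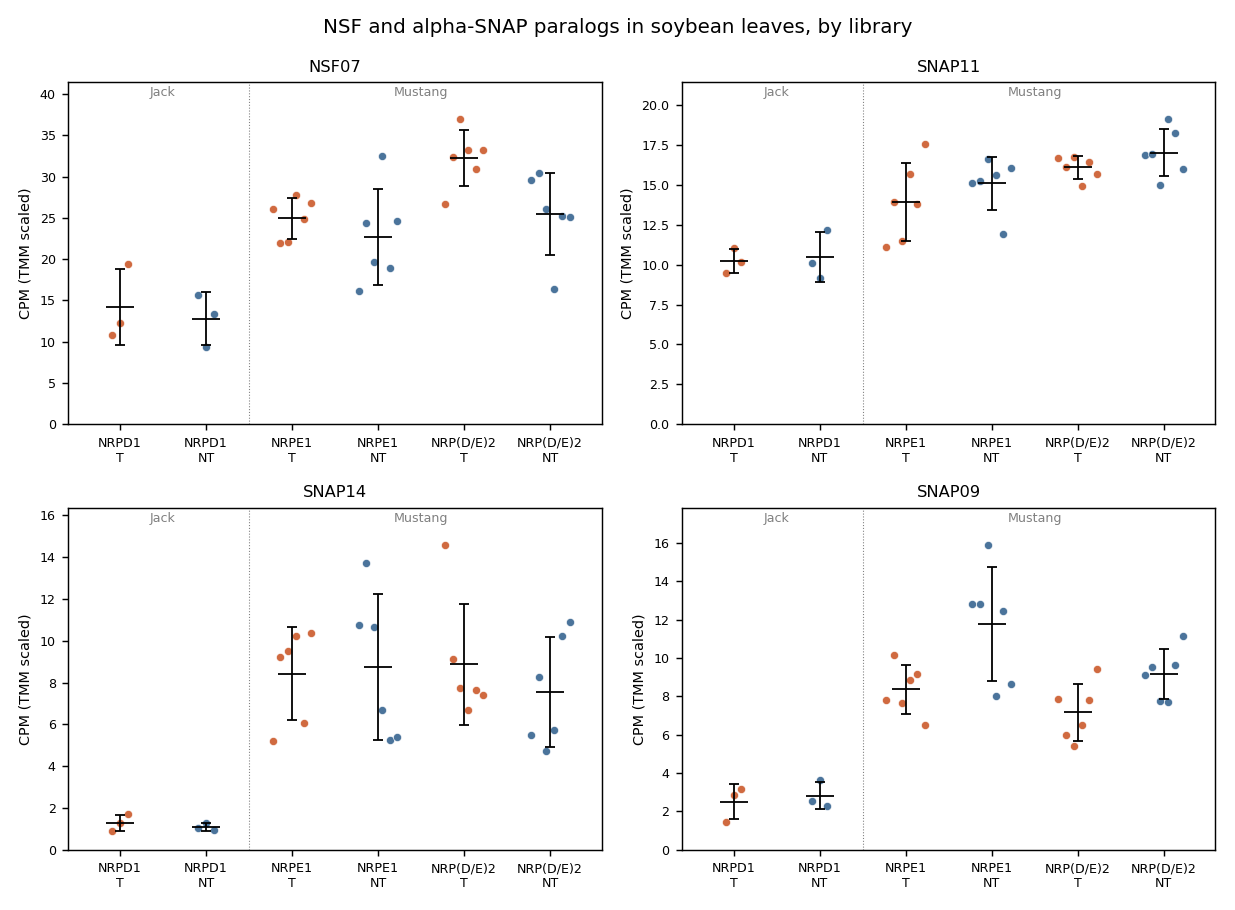
CPM (scaled by TMM, linear axes from 0) of NSF07, SNAP11, SNAP14 and SNAP09 in each of 30 libraries, by line and transgene. Points are libraries and bars are group means ± SD. The Jack libraries lie below all Mustang libraries for SNAP14 (at most 1.70 CPM) and SNAP09 (at most 3.63 CPM).

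Over the tested members, the median log2 fold change of T over NT was 0.20 for NRPD1-RNAi, -0.10 for NRPE1-RNAi and 0.27 for the NRP(D/E)2-RNAi line. The medians of all tested genes were 0.01, -0.01 and -0.01 in the same lines. An unadjusted p under 0.05 was found for 2 members in NRPD1-RNAi, WI12 and PLAC8, which had passed the filter there through T libraries, against 7.82% of all tested genes. It was found for 1 member in NRPE1-RNAi (SNAP09), against 15% of all tested genes, and for 5 members in NRP(D/E)2-RNAi (AAT, PLAC8, WI12, SHMT08 and NSF07), against 34.3%. DESeq2 called 1 member in NRPD1-RNAi and 0 in NRPE1-RNAi. The median Jack over Mustang log2 difference was -0.82 in NT and -0.41 in T libraries, against -0.04 and 0.01 over all tested genes.

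The neighbours of both loci were read from the order of identifiers, 10 on each side, without coordinates. Around the Rhg1 block 12 of 20 were tested, and between Jack and Mustang NT libraries 7 were higher and 2 lower in Jack, against 28.5% higher and 26.2% lower over all tested genes. Their median log2 difference was 0.94, against -0.04 over all tested genes. Against NRPE1-RNAi NT alone 5 were higher and 2 lower, where 47.3% of all tested genes were called in either direction. The median there was 0.48, against -0.05 over all tested genes. Glyma.18G022800, directly after the block, averaged 0.625 ± 0.405 CPM in Jack T and 0.765 ± 0.620 CPM in Jack NT (SD, n = 3 each). It averaged 2.08 ± 0.128 CPM in NRPE1-RNAi T and 2.46 ± 1.01 CPM in NRPE1-RNAi NT, and 13.0 ± 2.14 CPM in NRP(D/E)2-RNAi T and 19.2 ± 2.21 CPM in NRP(D/E)2-RNAi NT (SD, n = 6 each). Its log2 difference was -3.13 ± 0.37 between Jack and Mustang NT and -2.97 ± 0.26 between NRPE1-RNAi and NRP(D/E)2-RNAi NT (edgeR adjusted p = 1.29e-07 and 8.45e-10). The other neighbours with the largest Jack over Mustang differences were Glyma.18G023600, at 5.27 ± 2.11 CPM in Jack NT and at most 0.0683 CPM in any Mustang NT library, and Glyma.18G022100, at 0.954 ± 0.225 CPM in Jack NT and at most 0.201 CPM in any Mustang NT library. In T libraries both overlapped between Jack and NRPE1-RNAi. Glyma.18G023600 had 2.31 to 5.06 CPM in Jack T and 0 to 7.60 CPM in NRPE1-RNAi T, and Glyma.18G022100 had 0.783 to 1.16 CPM in Jack T and 0 to 0.958 CPM in NRPE1-RNAi T. In the T over NT comparison, 3 of the 9 tested neighbours fell and 0 rose in NRP(D/E)2-RNAi, where 7.25% of all tested genes fell, and none was called in the other lines.

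Around SHMT08 15 of 20 neighbours were tested. Between Jack and Mustang NT 4 were higher and 3 lower, against 28.5% higher and 26.2% lower over all tested genes, with a median log2 difference of -0.19. Between NRPE1-RNAi and NRP(D/E)2-RNAi NT 6 were higher and 1 lower, with a median of 0.72, against 20.4% higher and 19.5% lower over all tested genes. Glyma.08G108800, directly before SHMT08 and named after its values were seen, averaged 761 ± 165 CPM in NRPE1-RNAi T and 593 ± 138 CPM in NRPE1-RNAi NT, and 287 ± 130 CPM in NRP(D/E)2-RNAi T and 173 ± 67.1 CPM in NRP(D/E)2-RNAi NT (SD, n = 6 each). Its difference between these lines in NT libraries had the same sign as that of SHMT08 and was smaller, at 1.78 ± 0.27 against 3.96 ± 0.32 (log2, edgeR adjusted p = 8.41e-06 for Glyma.08G108800). None of these neighbours was called between T and NT in any line.

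**Figure D5:**
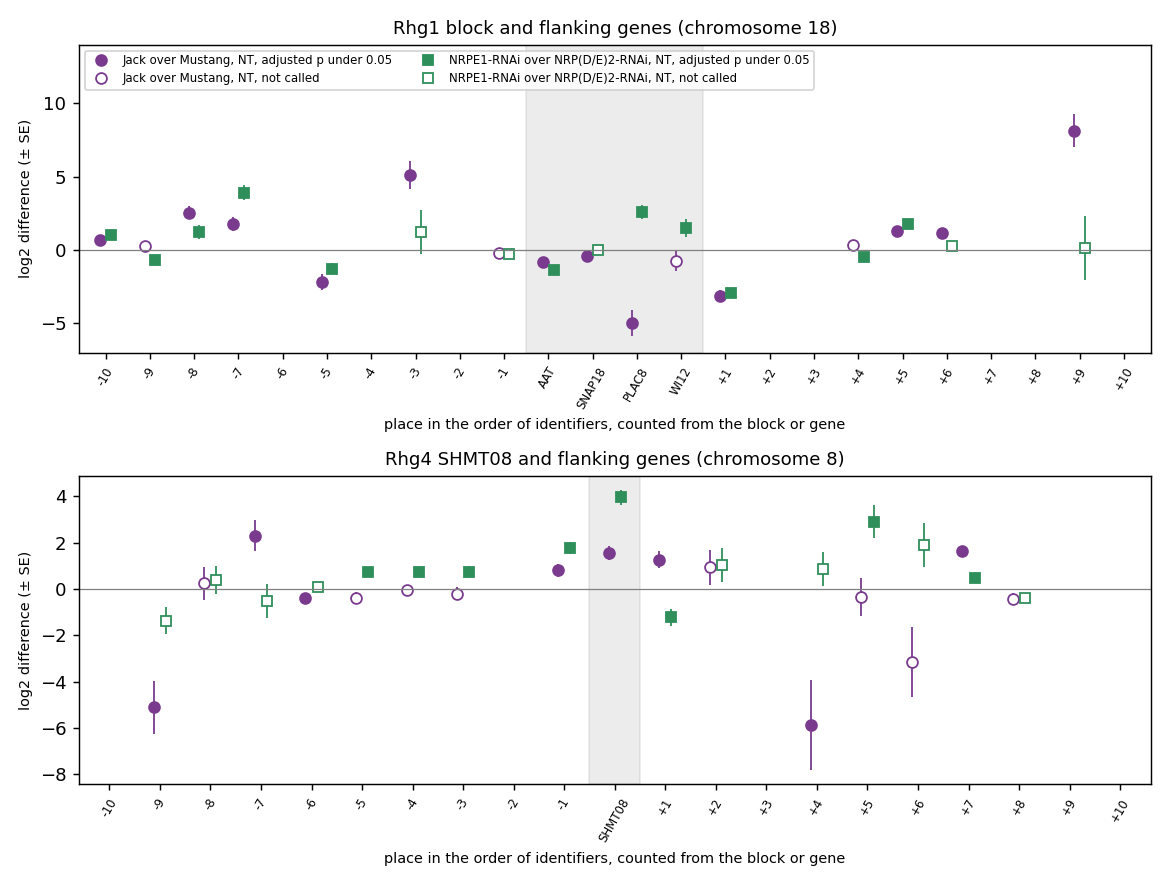
Log2 differences (± SE, edgeR) of the Rhg1 block, SHMT08 and up to 10 neighbours on each side, for NT libraries of Jack over Mustang (circles) and of NRPE1-RNAi over NRP(D/E)2-RNAi (squares). The horizontal axis is the place in the order of identifiers, filled symbols have an adjusted p under 0.05, and gaps are genes that were not tested. SHMT08 has the highest square of its panel, at 3.96.

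Genes whose library-to-library pattern was most like that of 3 members were found by Pearson's r of log2 CPM, as deviations from group means over 30 libraries, among 31282 genes. They share libraries and depth, so r is a description. For SNAP18 they were Glyma.03G134200 (r = 0.89), Glyma.17G179200 (0.88) and Glyma.02G255700 (0.88). For WI12 they were Glyma.13G032100, Glyma.12G096600 and Glyma.20G012600 (r = 0.93 each). For SHMT08 they were Glyma.18G113100 (r = 0.80), Glyma.02G068500 (0.79) and Glyma.11G014800 (0.79). None of these 9 genes is a member or lies among the neighbours described above. For WI12, r took in the libraries at 1553 and 961 CPM, and it was not calculated without them.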

How the data were processed

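The authors deposited a table of raw read counts per gene identifier for each library, without normalisation or header. The submitters' processing notes name FastQC 0.11.5, STAR 2.5.3a and edgeR, without their roles. For genome build, annotation, counting program and strand setting, nothing was stated in the labels or headers, so reads of near-identical or antisense genes may be counted for either. Within each line, counts were filtered with filterByExpr, scaled by TMM and tested with edgeR 4.0.16 (quasi-likelihood, R 4.3.3), with Benjamini-Hochberg adjustment over all tested genes. Cultivars, lines and differences between T effects were tested in a 6-group edgeR model over 30 libraries, with Mustang as the mean of its 2 lines. SE were derived from the F statistic. DESeq2 1.42.0, other scalings, no filter, replicate blocks, subsets of libraries and omission of single libraries were alternatives. All 10 members are named, and of similar patterns the first 3. Of the Rhg1 neighbours, the 3 with the largest called Jack over Mustang NT differences are named. Of the SHMT08 neighbours, Glyma.08G108800 is named. It was chosen after its values were seen, and not for the size of its Jack over Mustang difference. The steps were tested on simulated data. No identifier matched the RefSeq table (0 of 55589), so lists that need gene names, and sequences, are not analysed here. No 2 count tables were identical. Members and lists were chosen with earlier results of these data known.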

Additional observations from a re-analysis of the deposited data

Results flagged for a closer look

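In groups of 6 libraries, 36 combinations of gene and group were examined for a library far from the others of its group, and 4 were found. Chance alone gives about 1 in 20. WI12 reached 961 CPM in NRP(D/E)2-RNAi T replicate 3, where the next library had 387 CPM, and 1553 CPM in NRPE1-RNAi NT replicate 4, where the next had 175 CPM. SNAP14 reached 14.6 CPM in NRP(D/E)2-RNAi T replicate 1, against 9.11 CPM in the next library. SNAP11 was at 11.9 CPM in NRPE1-RNAi NT replicate 5, the lowest of its group, with the next at 15.1 CPM. The T effect on PLAC8 differed between Jack and the mean of the Mustang lines by 4.58 on the log2 scale, in an edgeR test of the difference itself. That value rests on 2 counts in Jack NT. The call was lost under 7 of 35 alternatives, with an edgeR adjusted p of up to 0.229.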

How the results depend on the processing

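The number of members called between T and NT in NRPD1-RNAi was 0, and 1 with DESeq2 or with all 30 libraries in 1 model. In NRP(D/E)2-RNAi it was 2, with 1 in the 30-library model, 0 with a replicate block (WI12 1.45, adjusted p = 0.0925; SHMT08 0.91, adjusted p = 0.0502), and 1 to 2 on leaving out 1 library. Of 8 members called between Jack and Mustang NT, 5 were called against NRPE1-RNAi alone, where SHMT08 turned to -0.42, and 6 to 8 on leaving out 1 library. Without NRPE1-RNAi NT replicate 4, WI12 turned to -0.037 between the Mustang NT groups (up to 1.74 on leaving out another library). The difference between the Jack and Mustang T effects was called for 1 member, and for 0 with total count scaling or a replicate block within lines (PLAC8 4.44, adjusted p = 0.178), and for 0 to 1 on leaving out 1 library. The cause was not tested. The labels did not say whether replicate numbers pair T and NT libraries. Deviations of same-numbered T and NT libraries correlated at -0.43 to -0.23 in NRPD1-RNAi, -0.42 to 0.44 in NRPE1-RNAi and -0.35 to 0.27 in NRP(D/E)2-RNAi. These correlations, from 3 pairs in NRPD1-RNAi and 6 in each Mustang line, cannot decide whether the numbers pair libraries. With numbers 1 to 6 as a replicate block across lines, SNAP18 lost its Jack over Mustang calls (NT -0.39, adjusted p = 0.0655; T -0.40, adjusted p = 0.0634), as did AAT in NT (-0.67, adjusted p = 0.0507) and WI12 between the Mustang NT groups (0.78, adjusted p = 0.329). Over all genes, T against NT gave 5 calls in NRPD1-RNAi, with 1 under total count scaling, 10 without the filter, 0 with the block, 531 with DESeq2 and 208 in the 30-library model. It gave 618 in NRPE1-RNAi (block 293, DESeq2 1976, 30-library model 1415) and 5037 in NRP(D/E)2-RNAi (block 2198, DESeq2 7983). On leaving out 1 library these counts ranged from 0 to 54, from 441 to 2103 and from 2921 to 5595. The difference between Jack and Mustang effects gave 145 (block 56, DESeq2 384, leaving out 1 library 57 to 178), and that between the Mustang lines 61 (block 30, DESeq2 290, leaving out 1 library 46 to 147). DESeq2 gave no adjusted p for WI12 in NRPE1-RNAi. Depth limits PLAC8 in Jack NT, with 2 counts, and SNAP02, with 7.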
